A study of Homo sapiens with 12 samples.

Results

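The peaks described here are the NONO binding peaks that the authors' annotation placed in the exons of noncoding transcripts or in microRNA genes. They were taken from 6 peak lists by that annotation alone, and they number 480 of 26351 peaks (1.82%), with 449 in noncoding exons and 31 in microRNA genes. They lie in 137 genes. The lists come from eCLIP of NONO in 22Rv1, an established human prostate cancer cell line. In eCLIP, RNA and protein are crosslinked by UV light, the protein is pulled down with an antibody (here a rabbit antibody to NONO), and the bound RNA is sequenced, together with an input library made without the pull-down. After 40 h of growth, cells received 0.04% DMSO alone, 20 µM SKBG-1(R) or 20 µM SKBG-1(S), both compounds in 0.04% DMSO, for 4 h, and were crosslinked with 400 mJ of UV. The compounds are the R and S stereoisomers of SKBG-1, and the series title calls them small molecules that target NONO. Each treatment had 2 replicates, each with an immunoprecipitation and an input library and its own peak list, and each condition was grown as 2 to 3 plates. The labels do not say whether the replicates are separate cultures, so a p-value here measures only the spread between these lists. Peak lists hold no expression levels, so the identity of the cells was not checked against marker genes.

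NONO is a nuclear protein of the DBHS family, which binds RNA and DNA and works as a dimer with its relatives SFPQ and PSPC1. It is best known as a core protein of paraspeckles, nuclear bodies assembled on the long noncoding RNA NEAT1, and it takes part in splicing and in the processing of primary microRNA transcripts, whose hairpins are cut out in the nucleus to give mature microRNAs. Noncoding exons are a mixed class. They hold long noncoding RNAs, host transcripts of microRNAs, transcribed pseudogenes, and short structured RNAs such as U1, the small nuclear RNA whose 5′ end pairs with 5′ splice sites.

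The sequences of 7 regions seen in 3 or more lists are shown first, because the results below return to them. They were read 5′ to 3′ on the RNA strand from GENCODE 29 transcripts (GRCh38), and capitals mark the stretch covered in the largest number of lists. The RP13-25N22.1 region is chr11:1573261-1573369 (+), DLEU2 is chr13:50125332-50125499 (−), SUZ12P is chr17:30731715-30731893 (+), LINC-PINT is chr7:131106883-131106943 (−), and the MIRLET7BHG region in 4 lists is chr22:46080498-46080599 (+). For the MIRLET7BHG region in 5 lists only the shared stretch, chr22:46105421-46105466 (+), is given, and for MIR3176 only chr16:543284-543325 (+).
RP13-25N22.1: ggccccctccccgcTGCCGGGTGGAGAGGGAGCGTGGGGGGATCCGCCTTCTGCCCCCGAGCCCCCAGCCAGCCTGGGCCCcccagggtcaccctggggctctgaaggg
DLEU2: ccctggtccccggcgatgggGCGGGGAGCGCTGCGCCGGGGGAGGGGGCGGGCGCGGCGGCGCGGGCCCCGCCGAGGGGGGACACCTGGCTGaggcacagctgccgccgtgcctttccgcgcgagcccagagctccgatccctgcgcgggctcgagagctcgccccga
MIRLET7BHG in 5 lists: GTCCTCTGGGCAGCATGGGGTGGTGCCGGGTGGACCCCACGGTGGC
MIRLET7BHG in 4 lists: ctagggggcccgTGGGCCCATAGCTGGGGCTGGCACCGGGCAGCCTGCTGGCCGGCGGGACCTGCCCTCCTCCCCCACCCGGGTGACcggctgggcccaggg
SUZ12P: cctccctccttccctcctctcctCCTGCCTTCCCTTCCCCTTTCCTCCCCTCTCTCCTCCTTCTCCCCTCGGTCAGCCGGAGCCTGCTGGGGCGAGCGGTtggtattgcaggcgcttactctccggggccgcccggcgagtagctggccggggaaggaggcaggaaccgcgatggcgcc
LINC-PINT: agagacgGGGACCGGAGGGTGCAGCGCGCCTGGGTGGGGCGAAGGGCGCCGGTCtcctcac
MIR3176: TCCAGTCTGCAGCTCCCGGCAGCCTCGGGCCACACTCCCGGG

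The stretch shared by the most lists was 77.6% GC in RP13-25N22.1 and 88.9% GC in DLEU2. It was 73.9 and 77.3% in the MIRLET7BHG regions, 68.8% in SUZ12P, 80.9% in LINC-PINT and 73.8% in MIR3176. The DLEU2 region holds runs of 4 or more G at 5 places, while SUZ12P opens with a stretch of C and T.

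Long noncoding RNAs held 317 of the 480 peaks (66.0%), in 84 genes. Transcripts of the GENCODE class TEC, whose existence still awaits experimental proof, held 63 peaks in 14 genes. microRNA genes held 31 peaks in 16 genes, pseudogenes 26 peaks in 5 genes, and small nuclear RNAs 22 peaks in 5 genes. The remaining peaks were in noncoding transcripts of coding genes (12), in 5S ribosomal RNA genes or pseudogenes (5) and in 7SK-like RNAs (4). Long noncoding RNAs were the most frequent kind in each list, between 41.4% of the 29 peaks of SKBG-1(R) replicate 1 and 80.0% of the 20 peaks of SKBG-1(S) replicate 1. Small nuclear RNAs were 23.1% of the 13 peaks of DMSO replicate 1 and 27.6% in SKBG-1(R) replicate 1, but 0.373% of the 268 peaks of SKBG-1(R) replicate 2. TEC transcripts showed the opposite, with 50 of their 63 peaks in SKBG-1(R) replicate 2.

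**Figure D1:**
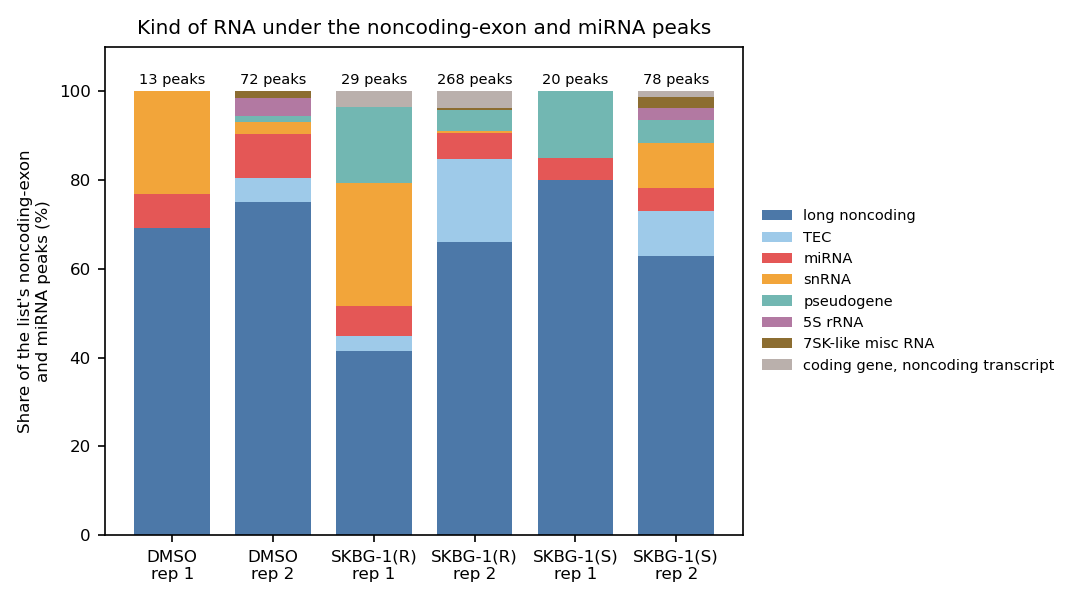
Kinds of RNA under the noncoding-exon and miRNA peaks, as stacked shares (vertical axis, % of the list's such peaks) for each of the 6 peak lists (horizontal axis), with the number of peaks above each bar. Long noncoding RNAs are the largest block in every list, and small nuclear RNAs are visible mainly in DMSO replicate 1, SKBG-1(R) replicate 1 and SKBG-1(S) replicate 2.

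The lists differed widely in length, and these peaks followed. In the order replicate 1 and replicate 2, the whole lists held 669 and 3678 peaks with DMSO, 1953 and 14847 with SKBG-1(R), then 1237 and 3967 with SKBG-1(S). The noncoding-exon and miRNA peaks numbered 13 and 72 with DMSO, 29 and 268 with SKBG-1(R), then 20 and 78 with SKBG-1(S). Replicate 2 was the longer list in each treatment. SKBG-1(R) replicate 2 alone held 55.8% of the 480 peaks, but it also held 14847 of the 26351 peaks of all classes, a similar share. Of the 137 genes, 61 had such a peak there and in no other list, and no matching count over all genes is given. Some of these 61 genes had peaks of other classes in other lists. No read counts were given, so the depth of each library is unknown and the number of peaks sets the precision.

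Recurrence across lists was counted by gene and by region for these peaks alone, and overlap beside all other peaks is given further below. Of the 137 genes, 89 had such a peak in 1 list, 21 in 2, 16 in 3, 5 in 4, 5 in 5 and 1 in all 6. By position, the 480 peaks merged into 327 regions, of which 69 held peaks of 2 or more lists. The one gene and the one region in all 6 lists were those of RP13-25N22.1. By replicate number, 112 genes had peaks only in replicate 2 lists, 9 only in replicate 1 lists and 16 in both, where the 89 genes of a single list fall under 1 number by construction. A group of 14 genes, with 135 peaks, had such peaks in all 3 replicate 2 lists and in no replicate 1 list, while 0 genes showed the reverse. Some of the 14 had peaks of other classes in replicate 1 lists, as C22orf34 did with 30, 28 and 54. The replicate 1 lists of DMSO, SKBG-1(R) and SKBG-1(S) held only 13, 29 and 20 such peaks, and no matching split over all genes is given. The part of list length in the split by replicate number was not tested.

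**Figure D2:**
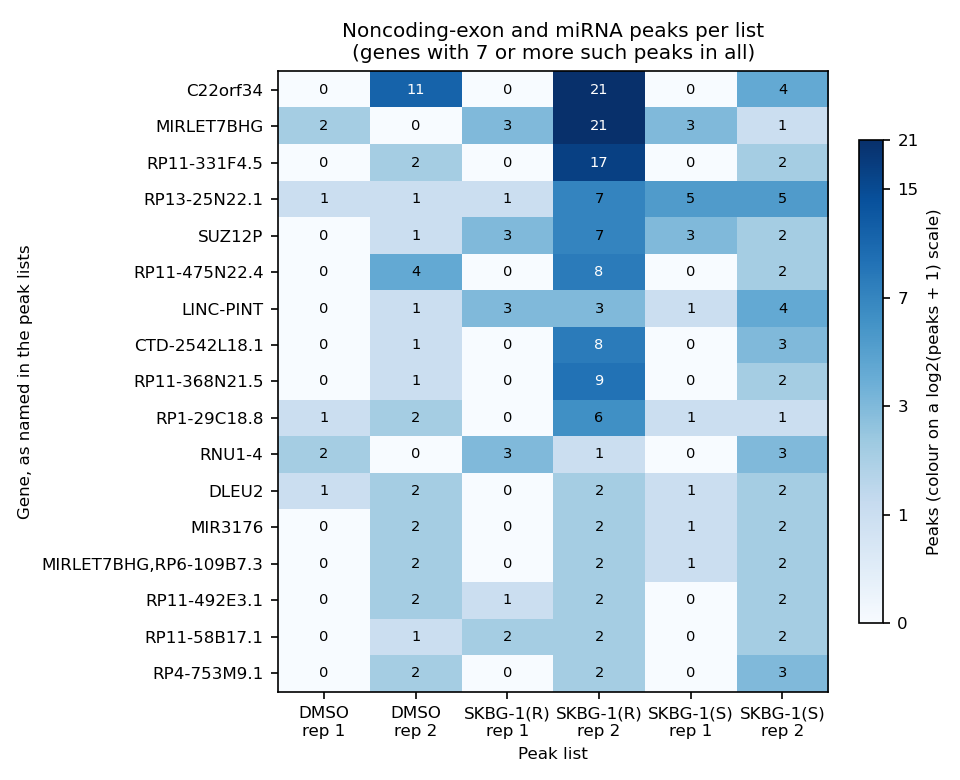
Number of noncoding-exon and miRNA peaks in each peak list (columns) for the 17 genes with 7 or more such peaks in all (rows); colour follows log2(peaks + 1). C22orf34 and RP11-331F4.5 have such peaks in replicate 2 lists only, while RP13-25N22.1 has at least 1 in each of the 6 lists.

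RP13-25N22.1 (ENSG00000233930.3, KRTAP5-AS1 in GENCODE 29) is an antisense long noncoding RNA at chr11:1571353-1599184 (+). It carried 20 noncoding-exon peaks, and they lay between chr11:1572706 and 1573876. The region printed above, at nucleotides 5 to 113 of a transcript of 519 nt, had a strongest log2 enrichment over input of 3.51 and 3.33 in DMSO replicates 1 and 2, 4.18 and 3.53 with SKBG-1(R), then 4.52 and 3.99 with SKBG-1(S). The ranges of SKBG-1(R) and of SKBG-1(S) overlapped each other, and both DMSO values lay below all 4 compound values. These enrichments are the authors' own values from lists called separately, so no test was made between them. A stretch of 67 nt was common to all 6 lists. In 3 lists, SKBG-1(R) replicate 2 and both SKBG-1(S) lists, further exon peaks lay on both sides, at chr11:1572968-1573053, chr11:1573626-1573687 and chr11:1573738-1573876.

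DLEU2, LINC-PINT and SUZ12P had recurrent peaks close to the 5′ end of an annotated transcript. DLEU2 (ENSG00000231607.10), the host transcript of miR-15a and miR-16-1, had 8 peaks in 1 region, at nucleotides 43 to 210 of a transcript of 3068 nt. Its strongest log2 enrichment was 3.35 and 3.61 with DMSO, 4.17 in SKBG-1(R) replicate 2, and 4.18 and 4.34 with SKBG-1(S), and SKBG-1(R) replicate 1 had no such peak there. LINC-PINT (ENSG00000231721.7), a long noncoding RNA known as a p53 target, had 12 peaks in 5 lists. The LINC-PINT region printed above, at nucleotides 93 to 153 of a transcript of 2101 nt, was at 4.84 in SKBG-1(R) replicate 1, 4.24 in replicate 1 of SKBG-1(S) and 4.12 in replicate 2 of SKBG-1(S). SUZ12P (ENSG00000264538.6, SUZ12P1 in GENCODE 29), a transcribed pseudogene of the Polycomb gene SUZ12, had 16 peaks in 5 lists. Its printed region starts at nucleotide 10 of a transcript of 886 nt and was at 3.22 in DMSO replicate 2, 3.45 in SKBG-1(R) replicate 2, and 4.16 and 3.01 with SKBG-1(S). A second SUZ12P region, chr17:30709627-30709728, was at 4.18 and 4.03 with SKBG-1(R) and at 3.96 in replicate 1 of SKBG-1(S). SUZ12P has a coding relative, and its peaks are uncertain where the authors' mapping could split reads between copies.

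**Figure D3:**
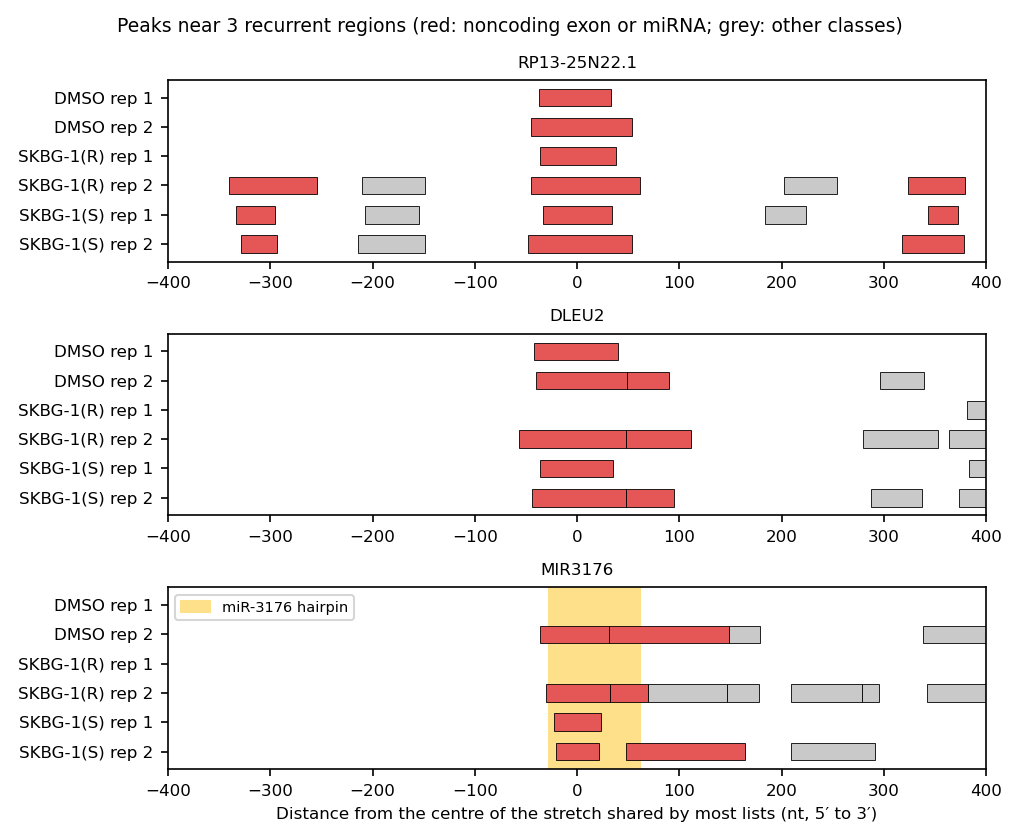
Peaks of each list (rows) around 3 recurrent regions, by distance in nt from the centre of the stretch shared by most lists, in the direction of transcription. Red peaks are noncoding-exon or miRNA peaks, grey peaks belong to other classes, and the yellow band is the miR-3176 hairpin; in RP13-25N22.1 the central peak is present in all 6 lists.

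A pair of loci on chromosome 22 held the genes with the most of these peaks. The let-7b host locus, a transcript that carries the let-7b microRNA gene and its neighbours, had 46 peaks (9.58% of the 480) from 6 gene names over 60021 nt. MIRLET7BHG (ENSG00000197182.14) itself had 30 exon peaks in 5 lists among 662 peaks of all classes, so that 4.53% of its peaks were in its exons. Its exon peaks numbered 2 and 0 with DMSO, 3 and 21 with SKBG-1(R), then 3 and 1 with SKBG-1(S). The MIRLET7BHG region of 5 lists was at log2 enrichments of 4.07 in DMSO replicate 1, 4.18 and 4.90 with SKBG-1(R), then 4.81 and 3.38 with SKBG-1(S), and was not called in DMSO replicate 2. At the start of the locus, where MIRLET7BHG overlaps the antisense RNA RP6-109B7.3 (PRR34-AS1 in GENCODE 29), 7 peaks were assigned to both genes.

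The other chromosome 22 locus is C22orf34 (ENSG00000188511.12), a long intergenic noncoding RNA on the minus strand, with RP1-29C18.8 and RP1-29C18.9 inside it. They had 52 peaks (10.8% of the 480) within 82611 nt. C22orf34 had 36 exon peaks, the most of any gene, with 11 in DMSO replicate 2, 21 in SKBG-1(R) replicate 2 and 4 in replicate 2 of SKBG-1(S). It had no exon peak in a replicate 1 list, although those lists held 30, 28 and 54 C22orf34 peaks of all classes. Of all 567 C22orf34 peaks, 6.35% were in its exons. Chromosome 22 held 22.7% of the noncoding-exon and miRNA peaks and 7.95% of all other peaks, and this is given as a description because peaks of 1 locus are not independent.

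RP11-475N22.4 (GATA2-AS1 in GENCODE 29), antisense to the transcription factor gene GATA2, had the highest log2 enrichment of all 480 peaks, 6.20 in replicate 2 of SKBG-1(S). That region, chr3:128497325-128497430, was at 4.34 in DMSO replicate 2 and at 3.97 in SKBG-1(R) replicate 2. RP11-475N22.4 had 4, 8 and 2 exon peaks in the replicate 2 lists of DMSO, SKBG-1(R) and SKBG-1(S) and none in replicate 1 lists. THUMPD3-AS1 and LINC00963 (GENCODE 29 names) had 7 exon peaks each, in 4 lists each.

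The remaining genes with at least 5 such peaks or with peaks in at least 3 lists were mostly long noncoding RNAs and TEC transcripts. RP11-368N21.5, a TEC transcript at chr16:29595130-29596137 (−), had 1, 9 and 2 peaks in the replicate 2 lists of DMSO, SKBG-1(R) and SKBG-1(S), and CTD-2542L18.1 had 1, 8 and 3. RP4-753M9.1, in an intron of PHF21B, had 2, 2 and 3 there. CTB-50E14.6 and CTC-281F24.5 had 1, 2 and 2, AC093415.2, COLCA1 and RP6-109B7.3 had 1, 2 and 1, and AC012305.1 and RP11-304L19.13 had 1 in each. RP1-29C18.9 had 2, 2 and 1. CTD-2547E10.2 (SMG1P3 in GENCODE 29), a pseudogene of the kinase gene SMG1, had 2 and 1 peaks with SKBG-1(R), 1 in replicate 2 of SKBG-1(S) and none with DMSO. Seen in SKBG-1(R) replicate 2 and in no other list were LA16c-313D11.12, RP11-1246C19.1 and RP11-304L19.12 with 6 peaks each, and CMB9-55F22.1, MTG1 and RP11-614O9.1 with 5 each.

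Many of these exons sit inside the introns of other transcripts, so that a read can come from either RNA. Of the 480 peaks, 351 (73.1%) also lay in an intron of another transcript on the same strand, and 202 (42.1%) in an intron of another transcript of their own gene. Introns of coding genes held 138 peaks (28.8%), in 42 host genes. BCAR1, which encodes an adaptor protein of focal adhesions, hosted 21 peaks through the TEC transcript RP11-331F4.5, with 2 in DMSO replicate 2, 17 in SKBG-1(R) replicate 2 and 2 in replicate 2 of SKBG-1(S). BCAR1 had 93 more peaks under its own name. GSE1, which had 498 peaks under its own name, hosted 12 through CTD-2542L18.1, and CROCC hosted 15 through copies of the U1 gene. On the other strand, a coding gene lay opposite 79 of the 480 peaks (16.5%), and some of these 79 are also among the 138. RNA from the noncoding transcript and pre-mRNA of a host on the same strand cannot be told apart in the peaks within host introns.

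U1 peaks were among the most enriched of the class, second in height to RP11-475N22.4. U1 small nuclear RNA accounted for 15 peaks in the copies RNU1-4 (chr1:16740516-16740679, +) and RNU1-2 (chr1:16895980-16896143, +). The RNU1-4 peaks covered nucleotides 1 to 71 of the 164 nt and the RNU1-2 peaks nucleotides 86 to 102. The RNU1-4 sequence is printed with the part under its peaks in capitals, and then the RNU1-2 stretch, whose capitals mark the bases covered in all 3 of its lists.
RNU1-4: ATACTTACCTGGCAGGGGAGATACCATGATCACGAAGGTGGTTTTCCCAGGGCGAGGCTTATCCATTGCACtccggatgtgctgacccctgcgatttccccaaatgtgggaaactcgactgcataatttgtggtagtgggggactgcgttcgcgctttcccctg
RNU1-2 stretch: cCCCTGCGATTTCCCCA

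The RNU1-4 and RNU1-2 sequences are identical over all 164 positions, so reads of the copies cannot be told apart and the assignment of a stretch to 1 copy is uncertain. The highest RNU1-4 log2 enrichment was 4.26 in DMSO replicate 1, 5.29 in SKBG-1(R) replicate 1, 5.19 in SKBG-1(R) replicate 2 and 5.88 in replicate 2 of SKBG-1(S). RNU1-2 was at 5.23 in DMSO replicate 1, 5.30 in SKBG-1(R) replicate 1 and 4.88 in replicate 2 of SKBG-1(S). Neither copy had a peak in DMSO replicate 2 or SKBG-1(S) replicate 1, so each treatment had U1 peaks in at least 1 list. In SKBG-1(R) replicate 2 the single RNU1-4 peak was confined to nucleotides 53 to 70. Related copies had 1 peak in RNVU1-1 (96.3% identical to RNU1-4) in SKBG-1(S) replicate 2, at nucleotides 125 to 164, and 3 in RNU1-132P (82.3% identical) in SKBG-1(R) replicate 1, at nucleotides 122 to 153. Peaks that touch, as in U1, are pieces of 1 footprint: joined within each list, the 480 peaks made 407 footprints.

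**Figure D4:**
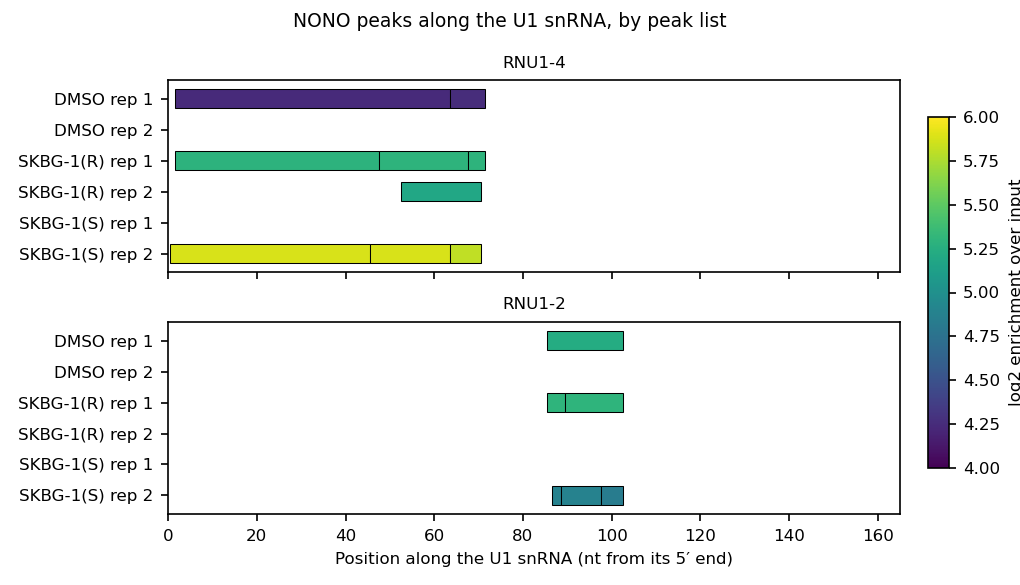
NONO peaks along the 164 nt of the U1 small nuclear RNA (horizontal axis, nt from the 5′ end) in each peak list (rows), for the gene copies RNU1-4 and RNU1-2; colour gives the log2 enrichment over input. RNU1-4 peaks lie in the first 71 nt and RNU1-2 peaks at nucleotides 86 to 102, and DMSO replicate 2 and SKBG-1(S) replicate 1 have none.

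A U2-family gene, RF00004 at chr17:43290291-43290481 (−), had 2 peaks in DMSO replicate 2 at a log2 enrichment of 3.83 and 1 in replicate 2 of SKBG-1(S) at 3.29. The 5S ribosomal RNA pseudogene RNA5SP216 had 2 peaks in each of DMSO replicate 2 and SKBG-1(S) replicate 2, between 3.15 and 3.40. These short RNAs belong to large families, so their assignment is uncertain as well.

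Well-known nuclear long noncoding RNAs were looked up in a list of 23. A noncoding-exon peak was found in 3, namely NEAT1, MALAT1 and LINC-PINT, and a peak of any class in 5, with PVT1 and FTX added. NEAT1, the scaffold of paraspeckles, had 1 peak in SKBG-1(R) replicate 1 (chr11:65423824-65423855, log2 enrichment 4.07) and 1 in replicate 1 of SKBG-1(S) (chr11:65424742-65424771, 3.12). A further peak within the span of NEAT1, in SKBG-1(R) replicate 2 (chr11:65444397-65444480, 3.02), was assigned to MIR612. MALAT1, an RNA of nuclear speckles, had 1 peak in DMSO replicate 1 (chr11:65502606-65502613, 3.44) and 1 in replicate 1 of SKBG-1(S) (chr11:65502605-65502616, 3.24). The MALAT1 peaks were 8 and 12 nt wide and overlapped. Among 24 microRNA hosts and primary transcripts, 5 had a peak of these classes (MIRLET7BHG, MIRLET7B, MIR4763, MIR3619 and MIR29B2CHG, which the lists name AL035209.2 and which had 2 peaks in SKBG-1(S) replicate 2). MIR17HG had peaks of other classes only, and DLEU2, described above, was not on that list. Among 13 snoRNA host genes 0 had a peak of any class.

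The 31 peaks in microRNA genes touched 16 genes, of which 13 had a hairpin or mature arm in the RefSeq table (GRCh38.p14). Of these peaks, 23 touched a hairpin, 21 touched a mature arm and 11 held a whole arm, and the 23 covered a median of 45.3% of their hairpin. The other 8 lay in MIR4523, MIR4664, MIR612 and MIR661, for which that table gave no hairpin. The MIR4523 peak touched its mature arm and is among the 21. For MIR4664, MIR612 and MIR661 the overlap with a hairpin could not be judged from that table. Of these 23, 4 had more than 50% of their width outside the hairpin. Introns of coding genes held 24 of the 31, beside 114 of the 449 noncoding-exon peaks (25.4%). The mature sequences under the peaks described next are given 5′ to 3′ with the seed, bases 2 to 8, in capitals. The listed seeds differ from one another, and microRNAs outside these genes were not compared. They come from chr16 (miR-3176), chr2 (miR-149), chr9 (miR-4479), chr7 (miR-339) and chr22 (miR-3619, miR-4763 and let-7b).
hsa-miR-3176: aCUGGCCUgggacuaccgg
hsa-miR-149-5p: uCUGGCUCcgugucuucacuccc
hsa-miR-149-3p: aGGGAGGGacgggggcugugc
hsa-miR-4479: cGCGCGGCcgugcucggagcag
hsa-miR-339-5p: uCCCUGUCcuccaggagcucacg
hsa-miR-3619-3p: gGGACCAUccugccugcugugg
hsa-miR-4763-3p: aGGCAGGGgcuggugcugggcggg
hsa-let-7b-5p: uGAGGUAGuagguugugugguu

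MIR3176, in an intron of CAPN15, was the microRNA gene seen in the most lists, with 7 peaks in 4 lists. Its strongest log2 enrichment was 4.01 in DMSO replicate 2, 5.44 in SKBG-1(R) replicate 2, then 3.49 and 3.35 in SKBG-1(S) replicates 1 and 2. A mature miR-3176 arm was held whole by 1 of the 7 peaks, in DMSO replicate 2, and the stretch common to 4 lists ended before the arm. In DMSO replicate 2, SKBG-1(R) replicate 2 and SKBG-1(S) replicate 2 further peaks of other classes followed within 400 nt. MIR149, in an intron of GPC1, had 1 peak in DMSO replicate 2 at 3.77 and peaks at 4.49 and 3.92 in SKBG-1(R) replicate 2. The first and the second of these reached 18 nt into the hairpin, and the third covered 33 of its 89 nt. MIR4479, in an intron of TRAF2, was covered with its whole arm at 3.26 in DMSO replicate 2 and 3.39 in replicate 2 of SKBG-1(S). MIR339, in an intron of C7orf50, had 1 peak that held the whole 5p arm, at 3.55 in SKBG-1(R) replicate 2.

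In the let-7b host locus, MIR3619 had peaks in both SKBG-1(R) lists, at 3.63 and 3.87, each holding the whole 3p arm. MIR4763 had 2 peaks in SKBG-1(R) replicate 2, at 3.01 and 3.53, holding its 5p and 3p arms. MIRLET7B, which gives the growth-restraining let-7b, had 1 peak in the same list, at 3.86 with a −log10 p of 16.8, which covered 22 of 83 nt of the hairpin and reached part of the 5p arm. No let-7b peak was called in the other 5 lists.

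The other microRNA genes had 1 to 3 peaks each. MIR5690, in an intron of the androgen-induced gene FKBP5, had its 1 peak in DMSO replicate 1 at 4.29. MIR4651 had 1 in DMSO replicate 2, MIR4523 1 in SKBG-1(R) replicate 1 and MIR3180-4 1 in replicate 2 of SKBG-1(S). MIR612, whose gene lies within the span of NEAT1, MIR5587 and MIR6775 had 1 each in SKBG-1(R) replicate 2. MIR661, in an intron of PLEC, and MIR4664, in an intron of FAM83H, each had 1 peak in DMSO replicate 2 and 2 in SKBG-1(R) replicate 2. SKBG-1(R) replicate 2 held 16 of the 31 microRNA peaks and the other lists 7, 4, 2, 1 and 1, so that most of these genes cannot be compared between treatments.

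The peaks were richer in G and C than the transcripts they lay in. Of the 480 peaks, 374 (77.9%) were wholly inside an annotated exon, and 370 of these, in 111 genes, could be set against the exonic sequence of their own transcript. The median GC content over all of them was 69.0% for the peaks and 59.4% for the transcripts, and 340 (91.9%) exceeded their own transcript. The list medians of the difference were 12.7 and 10.2 percentage points with DMSO, 10.0 and 8.63 with SKBG-1(R), then 12.8 and 9.86 with SKBG-1(S). Their mean was 10.7 ± 1.69 points (SD, n = 6 lists), positive in 6 of 6 (exact two-sided sign-flip test, p = 0.03125, the smallest that 6 lists can give). That test takes the lists as independent, while same-numbered lists deviate together and share regions. Grouped by replicate number the means were 11.9 and 9.56 points, and 2 numbers cannot give an exact p below 0.5.

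Short motifs were counted on the RNA strand only, in windows of 50 nt centred on 362 peaks and in 4200 windows of the same length. The latter tile the 114 transcripts, without the windows that touch a peak. GGGG was in 56.1% of the peak windows and in 23.0% of the tiled windows. CCCC was in 41.7 and 22.8%. AGGGA was in 11.05 and 7.55%, GAGGAAC in 0.276 and 0.286%, and TTTTT in 1.66 and 8.07%. The share of peak windows with GGGG was 50.0% in both DMSO lists, 79.2 and 53.8% with SKBG-1(R), then 73.3 and 56.1% with SKBG-1(S), from 12 to 208 windows a list. SKBG-1(R) replicate 2 gave 208 of the 362 windows, and the rarer motifs did not keep one direction over the lists: TTTTT was in 16.7% of the windows of DMSO replicate 1 and 13.3% of SKBG-1(S) replicate 1, and AGGGA in 4.35% of DMSO replicate 2 and 5.26% of SKBG-1(S) replicate 2. Windows of 1 gene share sequence, so these shares are a description.

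In enrichment, the noncoding-exon and miRNA peaks could not be told from the rest of their lists. Their log2 enrichment ran from 3.00 to 6.20 with a median of 3.72. The lowest value over all peaks of a list was 3.00 or 3.01, so medians are taken above that floor. The list median of the noncoding-exon and miRNA peaks minus that of all other peaks averaged −0.04 ± 0.15 (SD, n = 6 lists), higher in 2 lists and lower in 4 (exact sign-flip test, two-sided, p = 0.5, adjusted p = 0.5 over 3 measures). Their widths ran from 2 to 180 nt with a median of 65 nt, and list medians were narrower by 8.33 ± 6.65 nt on average, in 5 of 6 lists (exact sign-flip test, p = 0.0625, adjusted p = 0.09375). They lay farther from the 5′ end of their gene in 6 of 6 lists, by 0.10 ± 0.09 of the gene's length (exact sign-flip test, p = 0.03125, adjusted p = 0.09375). None of these passed the threshold after adjustment. Set against peaks in introns of noncoding transcripts in place of all other peaks, the difference in width shrank to −1.83 nt and that in position to 0.02.

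**Figure D5:**
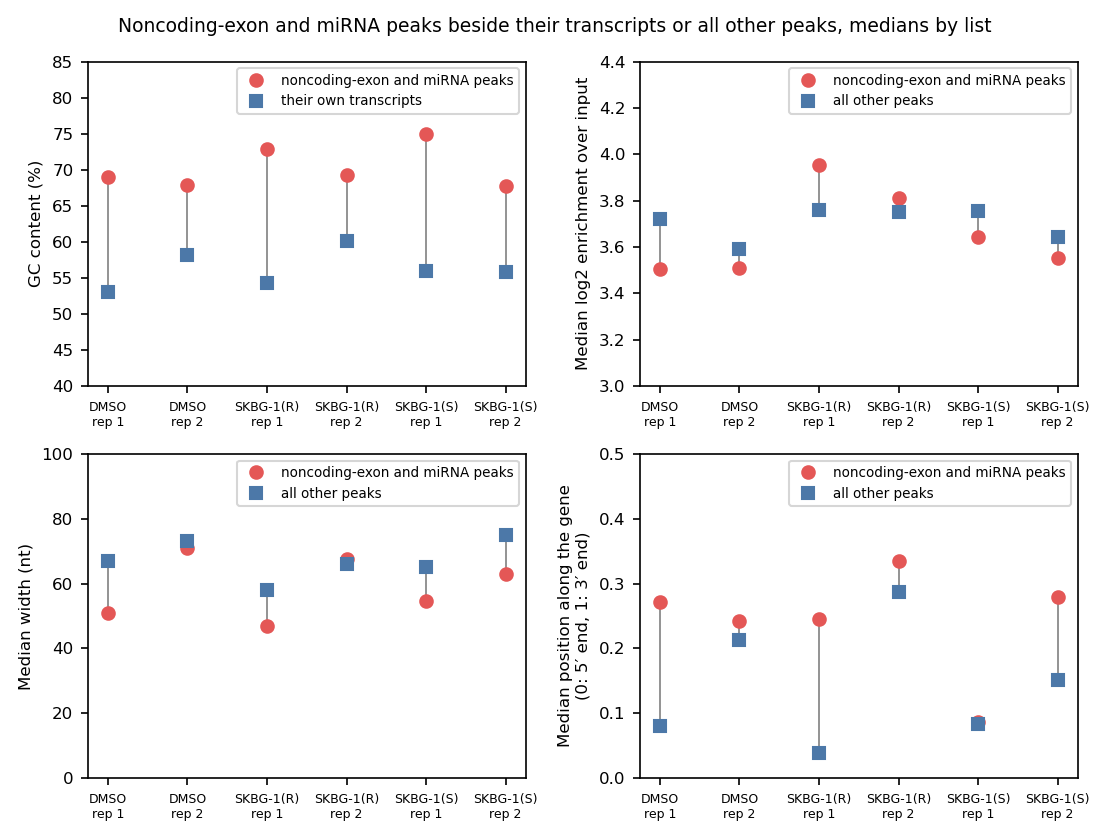
Medians by peak list (horizontal axis) of the noncoding-exon and miRNA peaks (red circles) beside their own transcripts for GC content (%) and beside all other peaks of the list for log2 enrichment, width (nt) and position along the gene (0 to 1), as blue squares joined by a grey line. Peak GC lies above transcript GC in 6 of 6 lists, while the log2 enrichment is higher in 2 lists and lower in 4.

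Near starts of coding genes, these peaks were fewer than others in each list, as a description only, since a class that excludes coding exons partly fixes this. Within 1000 nt of a coding transcript's start lay 23.1 and 23.6% of them with DMSO against 52.6 and 34.8% of all other peaks. With SKBG-1(R) the shares were 10.3 and 20.5% against 56.9 and 26.8%, and with SKBG-1(S) 10.0 and 16.7% against 53.9 and 44.4%.

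The treatments were then compared for the share of all peaks that these classes took. The share was 1.94% (95% Wilson interval 1.14 to 3.30) and 1.96% (1.56 to 2.46) in the DMSO lists. It was 1.48% (1.04 to 2.12) and 1.81% (1.60 to 2.03) with SKBG-1(R), then 1.62% (1.05 to 2.48) and 1.97% (1.58 to 2.45) with SKBG-1(S). Both SKBG-1(R) values lay below both DMSO values, and the SKBG-1(S) values spanned them. The intervals cover counting error only.

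With SKBG-1(R) the mean share was 1.64 ± 0.23% against 1.95 ± 0.01% with DMSO (SD, n = 2 each), a difference of −0.31 points with pairwise differences from −0.47 to −0.14. By the exact permutation test (two-sided) p was 0.333, the smallest that 2 against 2 lists allow, so the design cannot reach 0.05. Without SKBG-1(R) replicate 1 the difference was −0.15 points, and at a log2 enrichment of at least 4 it was −0.06. When peaks below a −log10 p of 5 were left out, the difference was −1.14 points, with shares of 3.48 and 2.38% in the DMSO lists and 1.69 and 1.91% with SKBG-1(R) (exact permutation p = 0.333). With SKBG-1(S) the mean was 1.79 ± 0.25% (SD, n = 2) and the difference from DMSO −0.16 points (−0.34 to 0.02, exact permutation test, p = 1), or −1.24 points at a −log10 p of at least 5 and 0.0289 with touching peaks joined. Between the stereoisomers, SKBG-1(R) minus SKBG-1(S) was −0.15 points (−0.48 to 0.19, exact permutation test, p = 0.667), and it turned to 0.10 at a −log10 p of at least 5. Over the 3 pairs the adjusted p was 1 for each. A difference between the stereoisomers in this share was not detectable with 2 lists each, and single pairs of lists differed by −0.48 to 0.19 points.

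Single RNAs were compared by their peaks per 10000 peaks of a list, as log2 values after adding a prior of 2 peaks scaled to list length, by limma in 1 fit over all 6 lists. Of 2893 combinations of gene and class, 532 had at least 10 peaks and were tested, and 10 of the 137 genes with noncoding-exon or miRNA peaks were among them. With adjusted p under 0.05, limma called 0 of these 10 in any of the 3 comparisons, and 0 of the 10 at an unadjusted p under 0.05. Over all 532 features, 0.188% were called for SKBG-1(R) against DMSO, 0% for SKBG-1(S) against DMSO and 0% for SKBG-1(R) against SKBG-1(S). At an unadjusted p under 0.05 the shares were 2.63, 0.564 and 0.94%. The 1 called feature was AFF3 in distal introns (limma adjusted p = 0.0314), named here after its values were seen. The median log2 fold change of the 10 was 0.25, 0.19 and −0.06 in the 3 comparisons, beside 0.21, 0.09 and −0.08 over all 532.

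The 30 log2 fold changes of these 10 genes ran from −1.55 to 1.53, with a median half-width of the 95% interval of 2.16, so that a change within that width could not be told from 0. SUZ12P stood at 0 and 2.72 peaks per 10000 with DMSO, 15.4 and 4.71 with SKBG-1(R), then 24.3 and 5.04 with SKBG-1(S). These are 0 and 1 peaks with DMSO, 3 and 7 with SKBG-1(R), then 3 and 2 with SKBG-1(S). Both of its DMSO values lay below the 4 compound values, but 1 peak in the short DMSO replicate 1 list would be 14.9 per 10000, above both replicate 2 compound values. The SUZ12P log2 fold changes were 1.24 (95% interval −1.002 to 3.48) for SKBG-1(R) and 1.53 (−0.71 to 3.77) for SKBG-1(S). RP13-25N22.1 stood at 14.9 and 2.72 with DMSO (1 peak each), 5.12 and 4.71 with SKBG-1(R) (1 and 7 peaks), then 40.4 and 12.6 with SKBG-1(S) (5 each). Its SKBG-1(S) range overlapped that of DMSO but not that of SKBG-1(R). Its log2 fold change was −1.55 (−3.82 to 0.71) for SKBG-1(R) against SKBG-1(S) and 1.22 (−1.04 to 3.49) for SKBG-1(S) against DMSO. LINC-PINT was at 1.24 (−0.93 to 3.41) for SKBG-1(S) against DMSO, and RP1-29C18.8 at −1.16 (−3.30 to 0.99) for SKBG-1(R) against DMSO. In limma none of these passed, with adjusted p of 0.987 or higher.

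Recurrence was also counted peak by peak, as a description. Between lists of the same replicate number, 17.2 to 59.7% of them overlapped a peak of the other list by at least 1 nt, beside 18.83 to 65.1% of all other peaks. Between the 2 lists of a treatment, 4.10 to 45.0% did, beside 6.91 to 54.7%. Between lists that shared neither treatment nor number, 2.24 to 70.0% did, beside 4.12 to 66.8%. The 70.0% are SKBG-1(S) replicate 1 peaks found in the longest list, SKBG-1(R) replicate 2, and the 2.24% are peaks of that list found in the shortest, DMSO replicate 1. Both lists of a treatment held a peak in 2 regions with DMSO, 10 with SKBG-1(R) and 10 with SKBG-1(S). The DMSO number is bounded by the 12 regions of DMSO replicate 1.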

How the data were processed

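NONO eCLIP peak lists of 22Rv1 cells, 1 per immunoprecipitation against its own input (3 groups of 2; 12 libraries), were used as deposited. Groups and replicate numbers came from the sample titles. Per the labels' protocols the reads went through the seCLIP pipeline, and cutadapt 1.9 and STAR 2.4.0i are named in the submitters' processing notes, with hg19, GRCh38 and hg38. The peak caller is not given in the sources used here. Each peak carries 2 values computed and deposited by the authors, a −log10 p and a log2 enrichment of immunoprecipitated over input reads. No list held a peak with a log2 enrichment below 3.00, so a site absent from a list can lie below that value. Positions are GRCh38: 99.6% of 9848 annotated transcripts matched GENCODE 29 within 1 nt.

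Peaks on 1 strand sharing at least 1 nt were merged into regions. Shares were compared by exact permutation tests, list-wise differences by exact sign-flip tests over 6 lists, and gene-and-class features by limma 3.58.1 (R 4.3.3; trended variance, Benjamini-Hochberg), tested on simulated data. Python 3.11.15 was used elsewhere. Same-numbered lists deviate together (correlations of 0.54, 0.58 and 0.45 over 532 features), so a replicate block was fitted as an alternative. The main tests between treatments were not paired. The part of list length in these correlations was not tested. No genome sequence was used, so the planned GC comparison with all other peaks was replaced by one with the peaks' own transcripts. Named are genes with at least 5 such peaks or peaks in at least 3 lists, members of the gene lists (matched by the deposited or the GENCODE 29 name), all microRNA genes and the most recurrent regions. RNA5SP216, RF00004 and the lesser U1 copies were added after their values were seen. The members and lists were chosen with earlier results of these data known.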

Additional observations from a re-analysis of the deposited data

How the results depend on the processing

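Of 230 recomputed values, 202 were labelled the same. Shares were judged by direction alone, and counts of calls or shared regions by their size. The other values were judged by direction and side of the threshold. Left out of the 230 were the 24 fold changes below 1 in size, whose 356 alternatives held 57 reversals. Some of the 230 could not move, since a fold change stays as it was when a list of the uncompared group is left out. For the share of peaks, SKBG-1(S) against DMSO turned to 0.0289 points with joined regions, and SKBG-1(R) against SKBG-1(S) turned to 0.14 points at a log2 enrichment of at least 4 and to 0.10 at a −log10 p of at least 5. Leaving out 1 list gave −0.47 to −0.15 points for SKBG-1(R) against DMSO, −0.33 to 0.02 for SKBG-1(S) against DMSO (0.016 without SKBG-1(S) replicate 1) and −0.32 to 0.03 between the compounds (0.014 without SKBG-1(R) replicate 1, 0.028 without SKBG-1(S) replicate 2). The enrichment difference turned to 0.11 at a log2 enrichment of at least 4 and to 0.0703 with lists of equal length. The 1 limma call, which is no noncoding exon or microRNA, went to 0 at a log2 enrichment of at least 4, at a −log10 p of at least 5, with no minimum, with TMM scaling, with no scaling and with summed widths. Leaving out 1 list gave 0 to 27 calls for SKBG-1(R) against DMSO and 0 to 27 between the compounds, the 27 both without SKBG-1(R) replicate 1, which leaves the longest list alone in its group and assumes that it varies like the others. In all 16 alternatives limma called 0 of the noncoding-exon and miRNA features (smallest adjusted p 0.634). Scaling moves the median of all features for SKBG-1(R) against DMSO from 0.21 to 0.51 with TMM and to 1 with none, and RP1-29C18.8 then turns to 0.21 with no scaling. Of the 24 fold changes below 1 in size, 22 turned sign in at least 1 alternative. The cause of these turns was not tested. The replicate block, fitted because same-numbered lists deviate together, left the share differences at −0.31, −0.16 and −0.15 points and the calls at 1, 0 and 0. The GC difference stayed between 9.85 and 10.8 points under 4 alternatives and between 10.3 and 11.1 without 1 list, where 5 lists cannot give a p below 0.0625. Grouped by replicate number, an alternative chosen after seeing the data, it was 10.7 points with an exact sign-flip p of 0.5, the smallest 2 numbers can give, so its call is lost by construction. Requiring 50% overlap gave 75 shared regions in place of 69. GC of all other peaks was not run. The number of peaks, from 13 noncoding-exon and miRNA peaks in the shortest list, limits every comparison.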
